A study of Mus musculus with 23 samples.

Results

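Fetal mammary stem cells (fMaSC) were compared with luminal progenitors of the adult gland by RNA-seq, to describe what the fetal cells share with these adult cells and what they lack from them. The comparison rests on 4 libraries, 2 of fMaSC and 2 of luminal progenitors, out of 8 libraries of normal mammary cells and 23 in the whole series. All genes with at least 1 RPKM (reads scaled for gene length and library size) in at least 2 of the 8 normal libraries were tested, which gave 12553 of the 24391 genes listed. Both populations came from wild-type mammary glands of C57BL6J mice. The fMaSC came from embryos of embryonic day 18 (E18), and the luminal progenitors from adults whose age the labels do not give. The adult glands also gave 2 libraries of basal cells and 2 of mature luminal cells, which share the estimate of the spread and appear below only to place a gene. Each library was made from around 2000 sorted cells. No source used here names the sort markers, the sex of the embryos or the number of animals behind a library. The study calls the libraries of a population biological replicates, but no label ties a library to an animal. The p-values therefore measure the spread between libraries, pooled over the 4 populations.

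The mammary gland is a bilayer of luminal cells, which line the duct and secrete milk, around which basal or myoepithelial cells contract. Late in fetal life the mammary rudiment invades its fat pad and holds cells that can rebuild a gland on transplantation, and these are called fetal mammary stem cells. Luminal progenitors are the adult luminal cells that carry little hormone receptor, divide in culture and give rise to the milk-secreting alveoli. They are known for the transcription factor Elf5, the receptor Kit and the aldehyde dehydrogenase Aldh1a3.

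The populations carried the RNA of their labels, with exceptions that bear on the comparison. The 8 luminal progenitor markers summed to 15850 and 27390 RPKM in luminal progenitors, to 4156 and 3956 in fMaSC, and to at most 1316 in a basal or mature luminal library. The single gene Lcn2 made up most of these sums. It was at 11786 and 22699 RPKM in luminal progenitors, 3160 and 2945 in fMaSC and 1262 in basal replicate 1. The 7 basal markers summed to 832 and 823 RPKM in fMaSC, to 10.6 and 17.7 in luminal progenitors and to 1781 and 842 in basal cells. The luminal progenitor and basal libraries also held RNA of 7 mature luminal markers, at summed levels of 1175 and 851 RPKM and of 1404 and 1017 RPKM. These markers summed to 142 and 145 RPKM in fMaSC and to 7097 and 6933 in the mature luminal libraries themselves. Between 10152 and 11349 genes reached 1 RPKM in the 4 libraries compared. The fMaSC pair was the closest of the 4 pairs, with a median difference between its libraries of 0.13 on the log2 scale against 0.251 for luminal progenitors. The basal pair was the widest, at 0.471, and enters the shared estimate of the spread. The spread used for a gene can thus exceed that of its fMaSC and luminal progenitor libraries. A level in RPKM describes the average over the cells of a library, so fewer cells of a type and less RNA per cell cannot be told apart.

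Of the 12553 genes, 6349 (50.6%) differed between fMaSC and luminal progenitors at an adjusted p under 0.05 (limma on log2(RPKM + 1), two-sided, Benjamini-Hochberg over all genes tested). In fMaSC 4461 genes (35.5%) were higher and 1888 (15%) were lower, and the counts of each list below have to be read against these shares. With only fMaSC and luminal progenitors in the fit, 5465 genes were higher and 2463 lower. The fMaSC libraries lay wholly above or wholly below the luminal progenitor libraries for 10392 genes (82.8%). Such a separation, given for genes below, is therefore the usual state of a gene here. The median difference over all genes was 0.395 in favour of fMaSC, and a gene or list has to be read against it. It was -0.04 after quantile normalization, 0.06 with median-of-ratios size factors and -0.02 after centring genes of like transcript length, an alternative chosen after seeing the data, and these 3 scalings gave 3089, 3257 and 3026 higher and 3142, 2702 and 2994 lower genes. With one library fewer the higher genes numbered 2864 without fMaSC replicate 1 and 2855 without replicate 2. The lower genes numbered 983 and 1064 without these 2 libraries and 1218 without luminal progenitor replicate 1. All differences below are fMaSC minus luminal progenitors on the log2(RPKM + 1) scale ± SE, all adjusted p-values are limma's, and each population has n = 2.

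**Figure D1:**
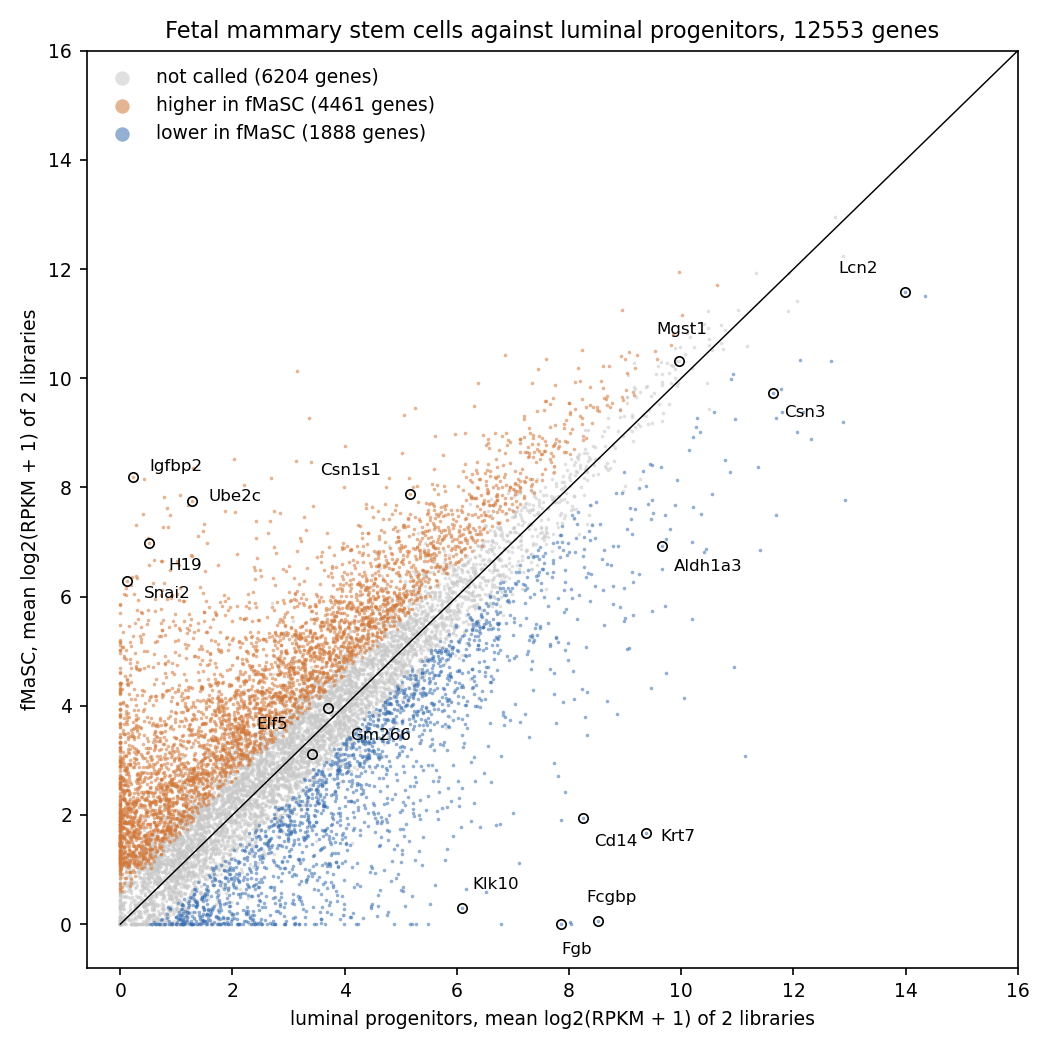
Mean level of each of the 12553 tested genes in luminal progenitors (horizontal axis) and fMaSC (vertical axis), each the mean log2(RPKM + 1) of 2 libraries, with genes called higher in fMaSC in orange, lower in blue and not called in grey. Circles mark genes described in the text, and the line marks equal levels: the 4461 orange points lie above it and the 1888 blue points below it.

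Likeness was read from the interval of the difference rather than from a p that missed the threshold. The interval was that of the values as deposited, where the median difference of all genes was 0.395. It was not reread gene by gene under the other scalings, so a gene held in common below rests on that scaling. For 2837 genes (22.6%) the 95% interval lay wholly within 1 on the log2 scale, and 1364 of these (10.9% of all tested) had a mean of at least 10 RPKM in both populations. Of the 6204 genes not called, 3412 had a wider interval, so for them neither a change nor likeness was shown. The 15 genes whose levels were alike in fMaSC and luminal progenitors while standing furthest above both basal and mature luminal cells were Gm266, Mgst1, Kcnk5, Sdpr, Ddx39, Msra, Lyn, Cd81, Nadk, Rcc1, Txndc16, Cenpt, Rhoj, Rab4a and Sdhaf1. This ranking was made without a test.

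Mgst1, a membrane-bound glutathione transferase, was at 1283 and 1251 RPKM in fMaSC and 1191 and 831 in luminal progenitors, against 222 and 151 in basal and 101 and 105 in mature luminal cells. Its 4 high libraries did not overlap the 4 low ones, and its fetal minus progenitor difference was 0.35 ± 0.25, with an interval within 1. Gm266, a predicted gene, was at 14.7 and 14.6 RPKM in fMaSC and 12.4 and 11.6 in luminal progenitors, and no library of the other populations exceeded 0.861. The potassium channel Kcnk5 was at 12.8 and 15.4 RPKM in fMaSC and 19 and 11.5 in luminal progenitors. Its libraries overlapped (-0.07 ± 0.36). Lyn, a Src-family kinase, was at 10.97 and 12.95 RPKM against 17.8 and 11.2, also with overlapping libraries (-0.23 ± 0.27). Cd81, a tetraspanin of the cell surface, was at 366 and 381 RPKM in fMaSC and 279 and 283 in luminal progenitors, slightly higher in both fetal libraries (0.41 ± 0.20), and at 118 and 96.2 in basal and 71.03 and 53.8 in mature luminal cells. Rhoj, a small GTPase, was at 23.9 and 27.1 RPKM against 18.3 and 25.1, and mature luminal cells were at 0.535 and 0.591.

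A wider rule, chosen after the values were seen, asked which genes set both populations apart from the other adult cells whether or not their own levels were alike. There were 21 genes with a mean of at least 10 RPKM in both fMaSC and luminal progenitors and more than 4 times the mean of basal and of mature luminal cells in each. Of these 7 were higher and 3 lower in fMaSC, and 3 had an interval within 1. Over all genes the shares were 35.5%, 15% and 22.6%, so these counts do not set the 21 apart. The higher ones included the quinone reductase Nqo1, at 104 and 88.2 RPKM in fMaSC and 17.8 and 11.7 in luminal progenitors (2.64 ± 0.43), and the lipid carrier Apod, at 187 and 176 against 55.5 and 45.6 (1.83 ± 0.21). Smox, an enzyme that oxidises spermine, was at 62.3 and 62.5 RPKM in fMaSC against 178 and 197 and was among those lower (-1.57 ± 0.16). The tetraspanins Tspan8 and Tspan12 met the rule without being called. Tspan8 was at 63.1 and 69.2 RPKM against 47.0 and 41.4, and Tspan12 at 31.7 and 31.6 against 26.8 and 20.3. Basal and mature luminal libraries reached at most 9.41 RPKM of Tspan8 and 6.50 of Tspan12.

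Of the 8 markers of luminal progenitors 6 were lower in fMaSC, 0 were higher and 2 were not called. Elf5, the factor that commits luminal cells to alveolar fate, was not called: it was at 8.87 and 6.68 RPKM in fMaSC and 10.98 and 8.64 in luminal progenitors, with overlapping libraries (-0.30 ± 0.32, adjusted p = 0.466), and at most 1.66 RPKM in basal and mature luminal libraries. Its 95% interval ran from -1.07 to 0.46. The integrin chain Itgb3, used to sort progenitors, was at 12.9 and 17.1 RPKM against 12.7 and 9.62 and was not called either (0.39 ± 0.80). Kit, a receptor tyrosine kinase, was at 6.54 and 6.21 RPKM in fMaSC, below 20.6 and 17.7 in luminal progenitors (-1.45 ± 0.26, adjusted p = 0.00303) and above the 0.0962 and 0.411 of basal and 0.678 and 1.29 of mature luminal cells. Aldh1a3, which makes retinoic acid, was at 118 and 122 RPKM against 712 and 918 (-2.74 ± 0.28, adjusted p = 0.000249), yet stood above the 3.37 and 6.61 of basal and the 17.6 and 19.3 of mature luminal cells. Csn3, the kappa-casein of milk, and Lcn2, an iron-binding defence protein, had the same order between fMaSC and progenitors (-1.90 ± 0.32 and -2.42 ± 0.37). Cd14 and Ltf lay lowest of all 4 populations in fMaSC. Ltf, lactoferrin, was at 0.426 and 0.178 RPKM in fMaSC, 46.96 and 43.2 in luminal progenitors, 4.72 and 5.02 in basal and 8.77 and 11.1 in mature luminal cells.

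**Figure D2:**
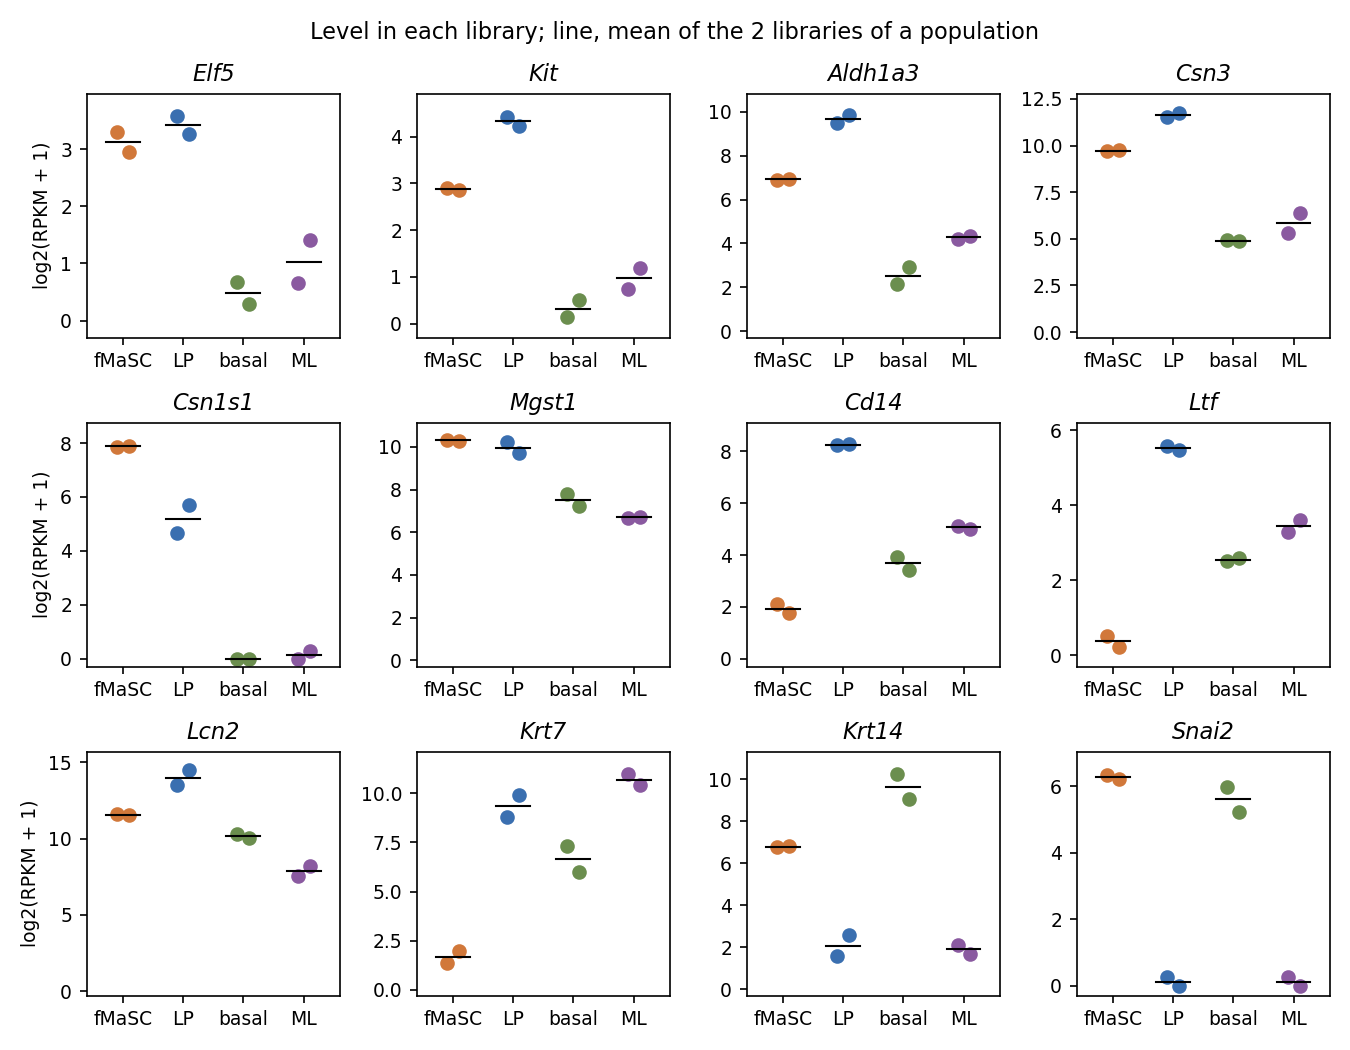
Level of 12 genes in each of the 8 normal libraries, as log2(RPKM + 1), with 1 panel per gene, 1 point per library and a line at the mean of a population's 2 libraries (ML, mature luminal; LP, luminal progenitors). Elf5, Csn3 and Mgst1 are high in both fMaSC and luminal progenitors, Cd14, Ltf and Krt7 are lowest in fMaSC, and Krt14 and Snai2 are high in fMaSC and basal cells.

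Milk genes of the fetal cells did not follow one direction. Of 14 tested milk and secretory genes 2 were higher and 9 lower in fMaSC, with a median of -1.79 against 0.395 over all genes. The casein Csn1s1 was at 233 and 233 RPKM in fMaSC and 24.2 and 50.4 in luminal progenitors, and at most 0.213 in the other libraries. Both fMaSC libraries stood well above both progenitor libraries. Lalba, the lactose synthase modifier, was the other called rise, at 6.55 and 5.83 RPKM against 3.41 and 0.701 (adjusted p = 0.023, difference 1.39 ± 0.40, call lost without fMaSC replicate 1 or fMaSC replicate 2, adjusted p = 0.0975 to 0.123), and the call was also lost under each of the 3 other scalings. Among the falls, Btn1a1, a butyrophilin of the milk fat globule, was at 0.621 and 0.574 RPKM against 47.01 and 21.3 (-4.36 ± 0.36). The iron carrier Trf was at 15.05 and 16.7 RPKM against 269.9 and 205 (-3.81 ± 0.25), and the mucin Muc1 at 2.65 and 2.52 against 35.5 and 31.2 (-3.26 ± 0.25). The progenitor libraries lay wholly above the fetal ones for these 3 genes. Plin2, a coat protein of lipid droplets, also fell (-1.94 ± 0.26). The whey proteins Wap and Glycam1 and the casein Csn1s2b were listed at 0 in all 4 libraries.

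Transcription factors of luminal and general mammary epithelium went both ways, 10 of 28 higher and 8 lower with a median of -0.38. The share higher was near the 35.5% of all genes, of which 15% were lower. Under the 3 other scalings the balance turned to 5 to 7 higher and 11 or 12 lower. It was 6 higher and 5 lower without fMaSC replicate 1, 5 and 5 without replicate 2, and 6 and 7 without luminal progenitor replicate 2. Grhl3, a grainyhead factor of surface epithelium, was at 16.6 and 16.02 RPKM in fMaSC and 2.14 and 0.454 in luminal progenitors (3.02 ± 0.48). Its relative Grhl1 went the other way, at 0.834 and 0.934 RPKM against 11.4 and 14.6 (-2.88 ± 0.24). Bcl11a was at 9.69 and 9.997 RPKM against 0.663 and 0.465 (2.80 ± 0.19). It and the AP-2 factor Tfap2b (2.25 ± 0.22) and the nuclear factor I gene Nfib (2.25 ± 0.23) were among the largest rises. Foxc1, a forkhead factor, had the largest fall (-3.34 ± 0.59), at 3.21 and 2.77 RPKM against 29.9 and 51.4. Stat5a, which carries the prolactin signal to milk genes, was at 2.71 and 2.42 RPKM against 14.0 and 11.4 (-1.94 ± 0.32), Ehf, an ETS factor related to Elf5, at 18.0 and 18.5 against 106 and 87.4 (-2.34 ± 0.26), and Sox9 at 57.5 and 67.3 against 301 and 231 (-2.07 ± 0.23). In each of these falls both progenitor libraries stood above both fetal ones.

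Luminal keratins were reduced in fMaSC, at a summed level of 1338 and 1332 RPKM against 11170 and 17350 in luminal progenitors. Of 5 luminal keratins tested 4 fell and Krt23 rose, with a median of -3.68. Krt8 was at 659.6 and 672 RPKM in fMaSC and 3944 and 5328 in luminal progenitors (-2.78 ± 0.33), and its partner Krt18 at 606 and 576 against 5914 and 9746 (-3.68 ± 0.47). Both remained well expressed in fMaSC, in contrast to Krt7 (1.58 and 2.91 RPKM) and Krt19 (16.2 and 16.9 RPKM). Krt23 ran against the others at 54.6 and 64.3 RPKM against 2.86 and 1.15 (4.39 ± 0.32). The mature luminal libraries exceeded the progenitor libraries for Krt7, at 1997 and 1389.96 RPKM.

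Of 28 junction and polarity genes 15 fell and 3 rose in fMaSC, with a median of -1.09. The claudins, which seal tight junctions, went both ways. Cldn1 was at 22.3 and 24.1 RPKM in fMaSC and 822 and 869 in luminal progenitors (-5.13 ± 0.59, adjusted p = 0.000421). Cldn4 was at 115 and 118 RPKM against 1238 and 1580.04 (-3.57 ± 0.48). In contrast Cldn6, a claudin of embryonic epithelia, was at 169.7 and 164 RPKM in fMaSC against 5.11 and 5.62 (4.72 ± 0.44, adjusted p = 0.000166). The cadherins went both ways too. E-cadherin (Cdh1), which joins epithelial cells, was at 35.7 and 39.3 RPKM against 213 and 218 (-2.49 ± 0.26), whereas P-cadherin (Cdh3), typical of basal cells, was at 14.8 and 18.1 against 0.163 and 0.114 (3.93 ± 0.21). The plakophilin Pkp2, of the desmosome, fell as well (-2.88 ± 0.27). Desmoplakin (Dsp), which anchors desmosomes, was held in common at 15.4 and 14.9 RPKM against 14.01 and 16.4 (0.00 ± 0.38, interval within 1), and so was the junction adhesion molecule F11r (-0.21 ± 0.20).

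Of 19 surface antigens 13 fell and 1, the adhesion molecule Icam1, rose (1.18 ± 0.35, call lost without fMaSC replicate 1, fMaSC replicate 2 or luminal progenitor replicate 2, adjusted p = 0.115 to 0.132, and also lost under 2 of the 3 other scalings). The largest falls after Cd14 were in Cd55, which blocks complement, in Cd200, which binds an inhibitory receptor of myeloid cells, and in the stem cell antigen Ly6a. Cd55 was at 2.66 and 2.42 RPKM in fMaSC against 122 and 86.9 (-4.87 ± 0.27), Cd200 at 2.71 and 2.15 against 107 and 66.4 (-4.64 ± 0.48), and Ly6a at 18.4 and 14.03 against 392 and 427 (-4.59 ± 0.31). No fetal library came near a progenitor library for these 3. Among the antigens used to sort mammary cells, Epcam was at 1294 and 1271 RPKM in fMaSC and 3803 and 5227 in luminal progenitors (-1.80 ± 0.27), and Cd24a was at 616 and 613 against 1269.7 and 1229.98 (adjusted p = 0.0357, difference -1.02 ± 0.33, call lost without fMaSC replicate 1, fMaSC replicate 2, luminal progenitor replicate 1, luminal progenitor replicate 2, mature luminal replicate 1 or mature luminal replicate 2, adjusted p = 0.056 to 0.171). The integrin chain Itgb1 was held in common at 323 and 353 RPKM against 277 and 306 (0.21 ± 0.27), and Itga6 was not called (0.77 ± 0.40). These antigens may have served in the sort, which is not described further.

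Innate defence genes were lower in fMaSC. Of 23 defence genes 16 were lower and 0 higher in fMaSC, with a median of -2.83, and the 3 other scalings gave 17 lower and 0 higher each. Cxcl2, a neutrophil attractant, was at 18.3 and 19.7 RPKM in fMaSC and 939 and 529 in luminal progenitors (-5.14 ± 0.30, adjusted p = 2.71e-05). Complement C3 was at 16.2 and 10.3 RPKM against 252 and 386 (-4.49 ± 0.57), and the protease inhibitor Slpi at 3.11 and 2.37 against 55.7 and 102 (-4.36 ± 0.34). The 2 populations were far apart in each. Wfdc18 was at 205 and 155 RPKM against 2145 and 5055 (-4.20 ± 0.63), and the scavenging chemokine Cxcl16 at 29.7 and 35.3 against 572 and 503 (-4.01 ± 0.19). The defensin Defb1 was listed at 0 in both fMaSC libraries, at 68.98 and 18.1 RPKM in luminal progenitors and at 806 and 60.6 in mature luminal cells. Tlr2, a receptor for bacterial lipoproteins, was held in common at 12.3 and 12.6 RPKM against 11.98 and 10.6 (0.13 ± 0.28), while Tlr4, the endotoxin receptor that works with Cd14, fell (0.844 and 0.836 RPKM against 9.64 and 5.57, -2.18 ± 0.36).

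Antigen presentation and interferon genes were lower as well. Of 24 MHC and antigen processing genes 12 were lower and 0 higher (median -1.19), and of 31 interferon-induced genes 21 were lower and 3 higher (median -1.41), the latter falling to 13 lower without fMaSC replicate 1 and 11 without replicate 2. The antigen presentation genes summed to 401 and 392 RPKM in fMaSC, 2205 and 2657 in luminal progenitors, 2150 and 1536 in basal cells and 4646 and 4149 in mature luminal cells, so mature luminal RNA moved with this fall, and its part was not tested. The interferon-induced genes summed to more in fMaSC than in luminal progenitors (1677 and 1519 RPKM against 835 and 736), against the direction of their median. Beta-2 microglobulin (B2m), the light chain of class I molecules, was at 156 and 144 RPKM in fMaSC and 735 and 1066 in luminal progenitors (-2.55 ± 0.29). Psmb8, a subunit of the immunoproteasome, was at 4.16 and 5.1 RPKM against 57.2 and 55.8 (-3.36 ± 0.54), and Tap2, a subunit of the peptide transporter, at 1.75 and 1.38 against 18.9 and 12.7 (-2.69 ± 0.36). All 3 were higher in both progenitor libraries than in either fetal library. The H2-Q genes are near-identical copies, so their single values are uncertain. Tapbp, which loads peptides, was held in common (19.2 and 22.4 RPKM against 28.6 and 23.7, -0.31 ± 0.19).

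Among interferon-induced genes the largest falls were in Rtp4 (-3.73 ± 0.24), Xaf1 (-3.44 ± 0.74, call lost without fMaSC replicate 2, adjusted p = 0.069), Ifi27 (-3.37 ± 0.17) and Ifit1 (-3.32 ± 0.25). Rtp4 was at 3.28 and 4.73 RPKM in fMaSC against 75.2 and 55.99, and Ifit1, which binds viral RNA, at 0.318 and 0.0461 against 9.17 and 12.6. Both progenitor libraries stood above both fetal libraries. The antiviral membrane proteins Ifitm1, Ifitm2 and Ifitm3 rose instead. Ifitm3 was at 1009 and 916 RPKM in fMaSC against 167 and 154 (2.58 ± 0.22, adjusted p = 0.00012), and Ifitm2 at 539 and 478 against 122 and 111 (2.11 ± 0.30). Irf1, a factor that switches on such genes, was held in common at 41.1 and 43.8 RPKM against 47.8 and 34.4 (0.07 ± 0.34).

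Interferon-induced genes share a short promoter motif, the interferon-stimulated response element, whose core, GAAA then any 2 bases then GAAA, was searched on both strands from 250 bases before to 50 after the start site. Only the first promoter listed for a gene was searched, and the promoters of a chromosome named below were left out. The core was found in 15 of the 24 interferon-induced genes that had a promoter in the RefSeq table (62.5%). It was found in 4 of 19 antigen presentation genes (21.1%), in 3.49% of the 27025 promoters searched and in 2.96% of those of tested genes. The lines show the 120 bases before the start site, 5′ to 3′ on the strand of the gene, for 3 genes that fell and for Ifitm2, which rose and carries the core too, with the core in capitals. Coordinates are those of GRCm38.p6, from RefSeq, whereas the submitters' processing notes name mm9 for the reads. A match describes these letters only.
Ifit1, chr19:34640769-34640888, plus strand: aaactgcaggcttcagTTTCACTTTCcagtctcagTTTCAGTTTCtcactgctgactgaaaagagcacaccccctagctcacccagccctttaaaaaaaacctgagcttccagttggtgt
Isg15, chr4:156200819-156200938, minus strand: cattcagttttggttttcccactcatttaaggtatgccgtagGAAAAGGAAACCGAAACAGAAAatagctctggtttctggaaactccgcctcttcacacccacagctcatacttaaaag
Gbp2, chr3:142620543-142620662, plus strand: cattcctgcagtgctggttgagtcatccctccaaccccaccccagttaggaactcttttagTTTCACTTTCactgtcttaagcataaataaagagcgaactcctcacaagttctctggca
Ifitm2, chr7:140955962-140956081, minus strand: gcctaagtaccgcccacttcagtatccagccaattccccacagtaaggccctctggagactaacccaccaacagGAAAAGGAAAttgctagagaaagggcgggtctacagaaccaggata
Isg15, a ubiquitin-like protein, was at 0 and 0.0464 RPKM in fMaSC against 1.03 and 1.4 (-1.11 ± 0.26, call lost without fMaSC replicate 1, fMaSC replicate 2 or luminal progenitor replicate 2, adjusted p = 0.0544 to 0.0642), low in all 4 libraries. Gbp2, a guanylate-binding protein, was at 1.0 and 1.18 RPKM against 10.9 and 8.73 (-2.36 ± 0.34). The promoters of Ifit1 and Gbp2 hold the reverse complement of the core, and that of Isg15 holds 3 overlapping matches.

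Hormone-sensing genes were lower in fMaSC for 9 of 14 and higher for 0, with a median of -1.60, and the mature luminal RNA in the progenitor libraries moved with this result as well. The prolactin receptor Prlr was at 50.3 and 49.5 RPKM in fMaSC, 664 and 483 in luminal progenitors and 4013 and 4291 in mature luminal cells (-3.48 ± 0.22). Cited1, a transcriptional coactivator, was at 5.41 and 4.92 RPKM, 60.9 and 66.8 and 618 and 392 in the same order (-3.39 ± 0.61). The progesterone receptor Pgr was at 5.86 and 3.9 RPKM, 46.2 and 28.9 and 172 and 264 (-2.69 ± 0.31). For all 3 the fetal libraries were lowest and the mature luminal libraries highest. The oestrogen receptor Esr1 was at 0.0886 and 0.104 RPKM in fMaSC and 5.22 and 2.93 in luminal progenitors (-2.17 ± 0.33). Foxa1, a pioneer factor of hormone-receptor cells, was not called (7.04 and 8.05 RPKM against 11.96 and 9.56, -0.46 ± 0.39). Of the 1888 genes lower in fMaSC, 590 had both mature luminal libraries above both progenitor libraries and 1298 did not. The summed levels of surface antigens (24850 and 24980 RPKM) and of EGF family genes (3041 and 2509) were also higher in mature luminal cells than in luminal progenitors (10530 and 13430, and 1395 and 1151). The part of mature luminal RNA in these falls was not tested.

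The falls that belonged to luminal progenitors themselves could be described apart. There were 60 genes lower in fMaSC with a mean of at least 20 RPKM in luminal progenitors and over 4 times the mean of basal and of mature luminal cells, a rule chosen after the values were seen. Klk10, a secreted protease, was at 0.0474 and 0.454 RPKM in fMaSC, 66.3 and 67.3 in luminal progenitors and at most 0.495 in the other libraries. Car2, a carbonic anhydrase, was at 7.59 and 5.9 RPKM against 241 and 185 (-4.79 ± 0.36), and the hormone gene Cck at 0.201 and 1.01 against 93.4 and 53.3 (-5.52 ± 0.60). Both were at least 20 times lower in each fetal library than in either progenitor library. The adhesion molecule Ceacam1 (17.7 and 18.7 RPKM against 279.7 and 366), the vasoconstrictor Edn1 (9.65 and 9.84 against 151 and 159), the growth factor Csf3 (9.78 and 10.2 against 366 and 275) and the nucleoside carrier Slc28a3 (0.0973 and 0.251 against 23.1 and 30.3) belonged to the same 60.

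The 10 largest falls among genes reaching 20 RPKM in luminal progenitors were in Fcgbp, Lgals3, Mir17hg, AW112010, Fgb, Krt7, Gm1821, Cd14, F3 and Gipc2. F3, tissue factor, was at 23.9 and 26.6 RPKM in fMaSC and 1904 and 2009 in luminal progenitors (-6.22 ± 0.21), and mature luminal cells held 10151 and 10626. Gipc2, a scaffold protein, was at 1.64 and 0.771 RPKM against 153 and 122 (-6.00 ± 0.59). Mir17hg, the host transcript of a microRNA cluster, and Fgb, a fibrinogen chain, were listed at 0 in both fMaSC libraries, at 266 and 258 RPKM and at 192 and 279 RPKM in luminal progenitors. Gm1821, a predicted gene, was listed at 0 in both fMaSC libraries too (call lost without fMaSC replicate 1, fMaSC replicate 2, luminal progenitor replicate 1 or luminal progenitor replicate 2, adjusted p = 0.0611 to 0.0856). In 7 of the 10 (Lgals3, AW112010, Fgb, Krt7, Gm1821, F3 and Gipc2) both mature luminal libraries stood above both progenitor libraries.

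Immediate early and stress genes, which respond within minutes of a stimulus and also of tissue dissociation, fell for 12 of 26 and rose for 2 (median -0.97), counts that became 1 higher under each of the 3 other scalings and without either fMaSC library or luminal progenitor replicate 2, and 5 lower without either fMaSC library and 7 without luminal progenitor replicate 1. The progenitor libraries differed between themselves in several: Atf3, a stress factor, reached 696 and 278 RPKM in them, against 122 and 119 in fMaSC (-1.86 ± 0.60, call lost without fMaSC replicate 1, fMaSC replicate 2, luminal progenitor replicate 1, mature luminal replicate 1 or mature luminal replicate 2, adjusted p = 0.0507 to 0.201). Zfp36, which destabilises cytokine mRNA, was at 32.1 and 35.8 RPKM against 219 and 186 (-2.54 ± 0.22), and Klf6 at 617 and 620.1 against 3769 and 2881 (-2.41 ± 0.21). Both fetal libraries were lower. Egr2 rose (15.6 and 19.8 RPKM against 4.2 and 1.33, 2.42 ± 0.38), and Ier2 was held in common (212 and 225 against 242 and 218, -0.07 ± 0.27). The time from dissection to lysis is not stated, and its part in these values was not tested.

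Turning to what fMaSC had and luminal progenitors lacked, genes of cell division rose almost without exception. Of 50 mitosis genes 48 were higher and 0 lower in fMaSC, with a median of 3.86, and of 40 DNA replication genes all 40 were higher, with a median of 3.20, against 35.5% of all genes. Leaving out any 1 of the 4 libraries left 46 or 47 mitosis and 38 or 39 replication genes higher. Cdk1, the kinase that drives mitosis, was at 106 and 106 RPKM in fMaSC and 1.25 and 1.59 in luminal progenitors (5.47 ± 0.29, adjusted p = 2.1e-05). Ube2c, which marks mitotic cyclins for destruction, was at 219.7 and 209 RPKM against 1.13 and 1.74 (6.48 ± 0.27), and the kinase Aurkb at 97.2 and 91.6 against 0.309 and 0.544 (6.07 ± 0.23). No progenitor library exceeded 1.74 RPKM of these 3 genes. The chromosomal passenger Cdca8 (5.90 ± 0.25), the cyclin Ccnb1 (5.79 ± 0.24) and the centromeric histone Cenpa (5.73 ± 0.51) rose alike. Anln, a scaffold of the cleavage furrow, was held in common at 6.61 and 8.4 RPKM against 6.25 and 5.72 (0.28 ± 0.27), and Mad2l1, a checkpoint protein, was at 86.8 and 86.4 against 127 and 120.2 and not called (-0.51 ± 0.23), though it was called lower under quantile normalization and median-of-ratios factors.

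In the replication list the thymidine kinase Tk1 was at 51.6 and 50.05 RPKM in fMaSC and 0.196 and 0.441 in luminal progenitors (5.30 ± 0.20), and the helicase subunit Mcm5 at 61.95 and 60.6 against 1.11 and 0.496 (5.13 ± 0.26). Pole, the catalytic subunit of a replicative polymerase, was listed at 0 in both progenitor libraries and was at 48.97 and 52.9 RPKM in fMaSC. Cdc45, another helicase component, was at 26.02 and 29.8 RPKM against 0 and 0.165 (4.74 ± 0.42). These genes were near the floor in luminal progenitors and clearly present in fMaSC. Other members changed less, from the clamp Pcna (34.6 and 34.3 RPKM against 13.4 and 10.1, 1.49 ± 0.23) down to Gins3 (1.36 ± 0.31, call lost without fMaSC replicate 2 or luminal progenitor replicate 1, adjusted p = 0.0595 to 0.0835).

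Many mitosis genes carry the CHR (TTTGAA), an element through which they are held silent in resting cells, and the CCAAT box, which binds the activator NF-Y. Both were searched on both strands in the same window of 250 bases before to 50 after the start site. Among the 41 mitosis genes found in the RefSeq promoters, 31 held a CHR (75.6%), 31 a CCAAT box (75.6%) and 27 both (65.9%), against 18.1%, 37.9% and 7.12% of all 27025 promoters. Of 31 replication genes 4 held a CHR (12.9%) and 20 a CCAAT box (64.5%). Among the 9336 tested genes with a promoter in the table the shares were 11.5% for the CHR, 38.9% for the CCAAT box and 4.87% for both. The lines show the 120 bases before the start site of 3 mitosis genes, 5′ to 3′ on the strand of the gene, with both elements in capitals on either strand.
Cdc20, chr4:118437344-118437463, minus strand: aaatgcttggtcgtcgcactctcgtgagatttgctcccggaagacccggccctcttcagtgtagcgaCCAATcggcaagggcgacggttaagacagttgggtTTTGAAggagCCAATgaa
Top2a, chr11:99024190-99024309, minus strand: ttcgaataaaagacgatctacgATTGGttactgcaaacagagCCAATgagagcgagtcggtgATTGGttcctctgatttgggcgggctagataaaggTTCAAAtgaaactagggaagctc
Kif11, chr19:37376262-37376381, plus strand: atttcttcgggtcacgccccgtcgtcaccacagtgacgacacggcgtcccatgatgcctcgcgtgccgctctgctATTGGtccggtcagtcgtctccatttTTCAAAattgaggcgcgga
Cdc20, an activator of the anaphase ligase, was at 86.1 and 88.6 RPKM in fMaSC and 0.99 and 3.07 in luminal progenitors (4.96 ± 0.40). Top2a, a topoisomerase, was at 63.2 and 59.2 RPKM against 0.547 and 0.524 (5.34 ± 0.23), and the spindle motor Kif11 at 33.2 and 43.2 against 0.16 and 0.181 (5.05 ± 0.24). In these 3 promoters the CHR begins 18, 23 and 19 bases before the start site, and a CCAAT box upstream of it begins 53, 58 and 45 bases before the start site.

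Genes that control the cell cycle were mostly higher in fMaSC. Of 26 control genes 16 rose and 2 fell (median 1.50), with 4 lower after length centring and 1 without any 1 of the 4 libraries. The 3 D cyclins, which start the cycle, all rose. Ccnd2 was at 183 and 180.4 RPKM in fMaSC and 0.176 and 0.496 in luminal progenitors (7.11 ± 0.25), Ccnd1 at 158 and 143 against 48.6 and 45.7 (1.65 ± 0.34, call lost without fMaSC replicate 1, adjusted p = 0.0591), and their kinase Cdk4 at 961 and 974 against 72.1 and 94.3 (3.54 ± 0.25). Ccnd2 was close to 0 in both progenitor libraries, and basal cells held 22.1 and 31.8 RPKM. Cyclin E1 (Ccne1) was at 37.2 and 41.1 RPKM against 1.92 and 0.794 (4.13 ± 0.57). The inhibitor Cdkn1c had the largest rise of the list after Ccnd2 (7.03 ± 0.24), while Cdkn1a was not called (109 and 103 RPKM against 153 and 133, -0.42 ± 0.38). The retinoblastoma gene Rb1 fell (4.98 and 4.68 RPKM against 22.9 and 13.6, -1.68 ± 0.28), and its relative Rbl1 rose (2.64 ± 0.30). Myc was held in common at 20.4 and 20.6 RPKM against 28.8 and 18.03 (-0.15 ± 0.31).

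Part of the basal transcription factors and keratins were higher in fMaSC. Of 21 transcription factors of basal and embryonic mammary cells 11 rose and 2 fell (median 1.10), or 7 and 1 without fMaSC replicate 2, with 1 lower also without fMaSC replicate 1 or luminal progenitor replicate 1. Trp63, the p63 factor of basal epithelia, was at 8.46 and 11.2 RPKM in fMaSC and 0 and 0.207 in luminal progenitors (3.29 ± 0.32). Sox11, a factor of embryonic tissues, was at 62.1 and 59.1 RPKM against 0.321 and 0.183 (5.62 ± 0.20) and at most 0.177 in a basal or mature luminal library. Neither progenitor library reached 1 RPKM of these 2 factors. Egr2 (2.42 ± 0.38) and Sox6 (1.69 ± 0.34, call lost without fMaSC replicate 2, adjusted p = 0.0504) rose too, and Sox4 was held in common at 36.8 and 33.9 RPKM against 34.5 and 34.4 (0.03 ± 0.19). The homeobox gene Msx2 fell, at 6.87 and 4.9 RPKM against 119 and 65.5 (-3.71 ± 0.51). The basal keratins Krt14 (107 and 112 RPKM against 1.96 and 4.98, 4.71 ± 0.45), Krt17 (2.47 ± 0.32), Krt5 (2.34 ± 0.38) and Krt15 (1.15 ± 0.22) rose, whereas Krt6a fell (2.52 and 2.33 against 91.4 and 47.7, -4.29 ± 0.41).

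Contractile genes of myoepithelium rose for 9 of 13 and fell for 0 (median 2.34), with 1 lower under each of the 3 other scalings. The list held 2 genes within 1, and 1 with median-of-ratios factors or after length centring. Myl9, a myosin light chain, was at 49.9 and 45.1 RPKM in fMaSC and 0.0522 and 0.458 in luminal progenitors (5.29 ± 0.47). The tropomyosin Tpm2 was at 93.2 and 81.6 RPKM against 5.93 and 7.68 (3.51 ± 0.23), and calponin (Cnn1) at 14.9 and 17.7 against 0.622 and 0.26 (3.59 ± 0.64). Both fetal libraries stood above both progenitor libraries. The oxytocin receptor Oxtr, which triggers milk ejection, was at 9.87 and 11.1 RPKM against 0.775 and 0.49 (2.82 ± 0.60, call lost without fMaSC replicate 1 or fMaSC replicate 2, adjusted p = 0.0544 to 0.0614), and Actg2 was listed at 0 in both progenitor libraries and at 26.01 and 23.8 RPKM in fMaSC. Tpm1 was held in common (171 and 175 RPKM against 252 and 226, -0.46 ± 0.18), and smooth muscle myosin Myh11, a mark of mature myoepithelium, was at 0.687 and 0.63 RPKM in fMaSC and not called.

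The basement membrane list rose for 14 of 20 genes and fell for 0 (median 2.36), with 5 genes held within 1. Quantile normalization gave 3 lower and median-of-ratios factors 1, and 2 genes were held within 1 without fMaSC replicate 1 or luminal progenitor replicate 2 and 3 without either of the other 2 libraries. The laminin chains differed among themselves. Lamb1 was at 45.6 and 46.5 RPKM in fMaSC and 1.11 and 0.738 in luminal progenitors (4.62 ± 0.28), and Lamc1 at 507 and 505 against 59.7 and 64.1 (3.01 ± 0.24). Lama5, a chain of epithelial laminins, had an interval within 1 (181 and 178 RPKM against 234 and 249.96, -0.43 ± 0.20). The collagen IV chain Col4a2 was at 31.95 and 30.2 RPKM against 0.222 and 0.484 (4.57 ± 0.22). Fras1, which fixes embryonic epithelium to its stroma, was at 14.96 and 16.7 RPKM against 0 and 0.0675 (4.02 ± 0.39), and its partner Frem2 was listed at 0 in both progenitor libraries and at 11.5 and 11.9 in fMaSC. Integrins and hemidesmosome genes had no common direction: 7 of 18 rose and 5 fell, which became 4 or 5 higher and 4 to 6 lower under the 3 other scalings and 4 higher and 4 lower without fMaSC replicate 2. Over all genes 35.5% rose and 15% fell. Itga9 (3.91 ± 0.19) and Col17a1 (3.61 ± 0.55) rose, and Itgb6 (-3.57 ± 0.31) and Itgav (-3.51 ± 0.34), which pair in a receptor that activates TGF-beta, fell.

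Interstitial and cartilage-type matrix genes rose for 22 of 26 and fell for 1 (median 2.75). Vcan, the proteoglycan versican, was at 139 and 135 RPKM in fMaSC and 1.47 and 1.76 in luminal progenitors (5.73 ± 0.58). Lect1, a cartilage protein, was at 367 and 364 RPKM against 5.65 and 1.53 (6.48 ± 0.46), and the collagen chain Col9a3 at 39.4 and 42.1 against 1.67 and 1.03 (4.16 ± 0.23). The other collagen IX chains, Col9a1 and Col9a2, rose with it (3.96 ± 0.23 and 3.63 ± 0.21). Sparc, a collagen-binding protein, was at 170.0 and 162 RPKM against 2.0 and 8.45 (4.97 ± 0.54). Thbs1, a thrombospondin, was the single fall (128 and 136 RPKM against 844 and 848, -2.68 ± 0.34), and Col6a3 was held within 1. Fibroblast markers moved with this list: 6 of 9 rose and 0 fell, and they summed to 89.8 and 108 RPKM in fMaSC against 18.1 and 28.4 in luminal progenitors. None of the 9, which include Col6a3, was at 0 in either population, and their part in the result was not tested.

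Signalling genes were ordered by pathway. Of 34 Wnt genes 16 rose and 6 fell (median 0.67), against 35.5% and 15% of all genes. Its ligands went both ways. Among ligands Wnt5b was at 1.79 and 1.44 RPKM in fMaSC and 63.4 and 49.2 in luminal progenitors (-4.44 ± 0.26), and Wnt7b at 0.243 and 0.324 against 11.4 and 12.96 (-3.36 ± 0.39). The Wnt enhancer Rspo1 was at 0.0574 and 0.244 RPKM against 3.25 and 11.1 (-2.64 ± 0.44). Wnt7b and Rspo1 stayed under 1 RPKM in both fMaSC libraries, and Wnt5b was low in them. Wnt6 rose (2.43 and 2.36 RPKM against 0.136 and 0, 1.67 ± 0.17), and Wnt10a was listed at 0 in both progenitor libraries and at 1.95 and 1.45 RPKM in fMaSC. The R-spondin receptor Lgr5, a stem cell marker of the gut, was at 67.3 and 73.3 RPKM in fMaSC against 1.06 and 1.12 (5.09 ± 0.29, adjusted p = 2.54e-05). The antagonists Sfrp1 (105 and 110.2 RPKM against 1.53 and 1.27, 5.50 ± 0.21) and Wif1 (7.14 and 7.34 against 0 and 0.0543) also rose. Axin2, a general target of the pathway, was listed at 0 in all 4 libraries.

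**Figure D3:**
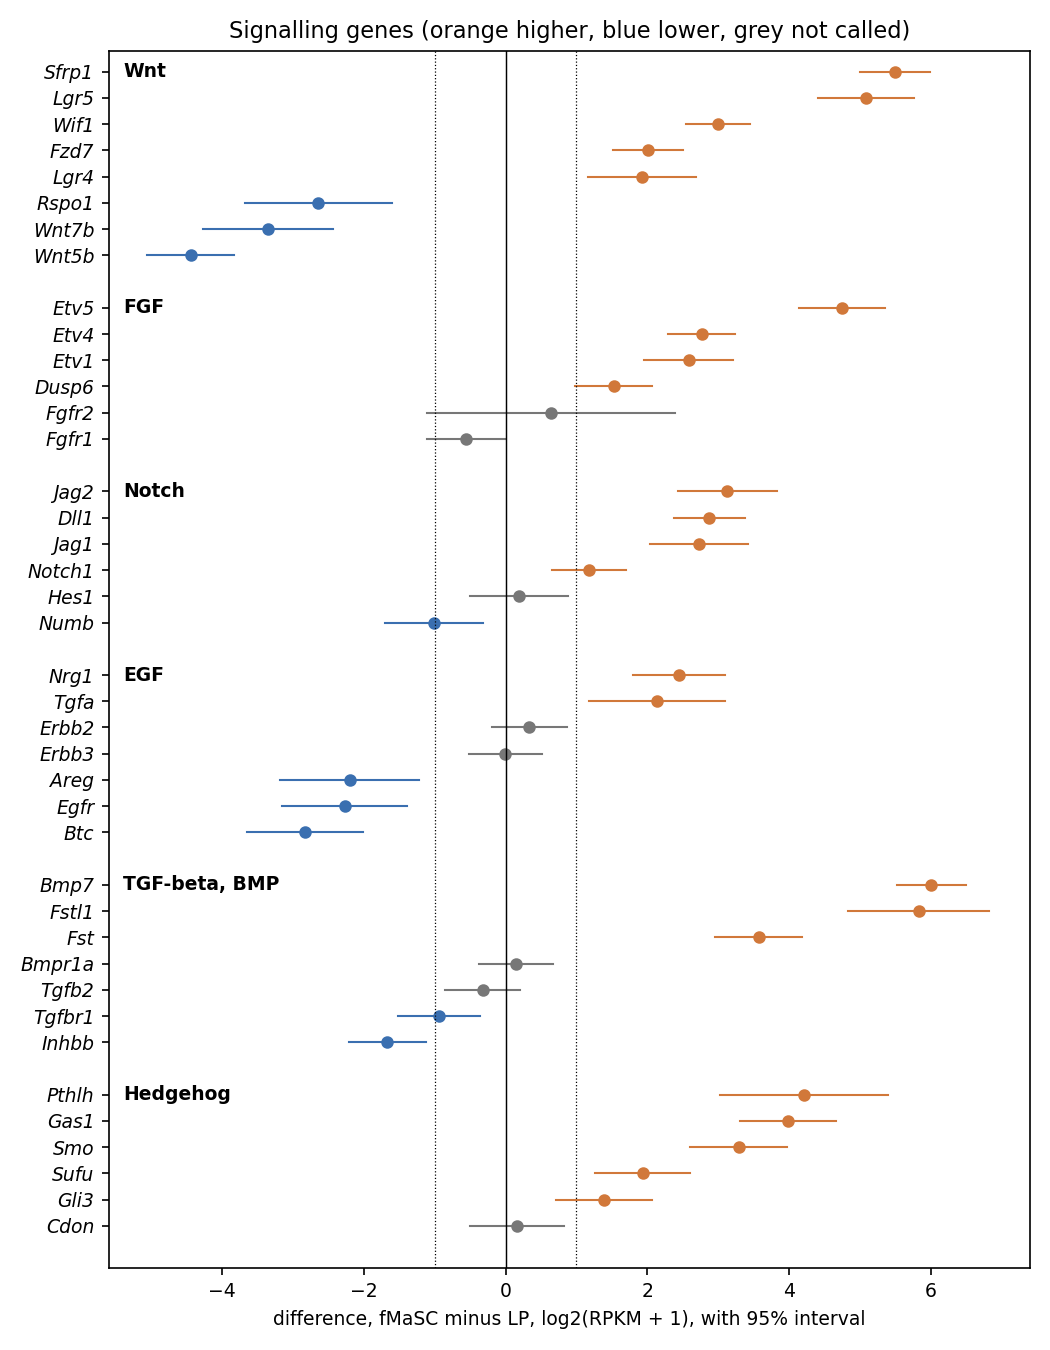
Difference, fMaSC minus luminal progenitors on the log2(RPKM + 1) scale, with its 95% interval (n = 2 libraries each) for ligands, receptors and targets of 6 pathways, picked after their values were seen, with dotted lines at -1 and 1. Etv5, Lgr5, Gas1 and the ligands Jag2, Nrg1 and Bmp7 lie to the right of 0 and the ligands Wnt5b, Wnt7b and Btc to the left, while Erbb2, Erbb3, Hes1 and Bmpr1a have intervals within 1.

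FGF signalling drives the outgrowth of the mammary bud. Of 16 FGF genes 9 rose and 0 fell (median 1.25), and 2 or 3 were lower under the 3 other scalings. The rises included the ETS factors and feedback inhibitors that the pathway is known to induce. Etv5 was at 69.2 and 73.3 RPKM in fMaSC and 2.25 and 1.22 in luminal progenitors (4.75 ± 0.26), and Etv4 at 8.27 and 8.53 against 0.308 and 0.453 (2.77 ± 0.20). The phosphatase Dusp6 was at 389 and 412 RPKM against 172 and 111 (1.53 ± 0.23), and the inhibitor Spry4 at 17.8 and 19.3 against 7.13 and 3.47 (1.70 ± 0.40, call lost without fMaSC replicate 1, fMaSC replicate 2 or luminal progenitor replicate 2, adjusted p = 0.0679 to 0.0827). Each was higher in both fetal libraries. The receptors were not called: Fgfr1 was at 50.8 and 60.4 RPKM against 85.7 and 78.5 (-0.56 ± 0.23), and Fgfr2 at 30.6 and 32.7 against 19.2 and 20.7 (0.64 ± 0.74).

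Of 14 Notch genes 7 rose and 1 fell (median 0.63), with 2 or 3 lower under the 3 other scalings. The largest rises were in 3 ligands. Jag2 was at 9.4 and 8.11 RPKM in fMaSC and 0 and 0.233 in luminal progenitors (3.13 ± 0.30), Dll1 at 18.8 and 19.8 against 1.45 and 2.1 (2.88 ± 0.22), and Jag1 at 26.6 and 36.1 against 5.15 and 2.76 (2.73 ± 0.30). No progenitor library overlapped a fetal one in these ligands, which held for 82.8% of all genes. The receptor Notch1 rose (14.3 and 14.5 RPKM against 5.35 and 6.26, 1.18 ± 0.22), and the target Hes1 was held in common at 62.3 and 66.5 against 53.1 and 59.4 (0.19 ± 0.29). Numb, an inhibitor of Notch, was lower (13.8 and 19.2 RPKM against 43.5 and 26.2, -1.01 ± 0.29, call lost without fMaSC replicate 1, fMaSC replicate 2 or luminal progenitor replicate 1, adjusted p = 0.0572 to 0.165).

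In the EGF family 3 of 14 genes were higher and 7 lower (median -0.69), and ligands went both ways. Fewer were called lower when either fMaSC library was left out. The median was then -0.50 without fMaSC replicate 1 and -0.88 without replicate 2. Neuregulin 1 (Nrg1), which binds Erbb3, was at 16.5 and 15.2 RPKM in fMaSC and 2.5 and 1.75 in luminal progenitors (2.45 ± 0.28), and Tgfa at 42.4 and 53.1 against 13.98 and 7.04 (2.14 ± 0.41, call lost without fMaSC replicate 2, adjusted p = 0.0506). Btc (1.66 and 0.766 RPKM against 19.2 and 10.7, -2.83 ± 0.35), Epgn (33.0 and 29.5 against 241 and 97.7, -2.26 ± 0.46, call lost without fMaSC replicate 2, adjusted p = 0.0565) and Areg (51.8 and 50.9 against 295 and 195, -2.20 ± 0.42), ligands of Egfr, were lower. Tgfa is a ligand of Egfr too, so the ligands of this receptor did not share a direction. Egfr itself was at 1.63 and 1.94 RPKM against 13.7 and 11.3 (-2.27 ± 0.38). The receptors Erbb2 (5.62 and 6.11 RPKM against 4.62 and 4.28) and Erbb3 (3.88 and 4.8 against 3.94 and 4.75) were held in common, with differences of 0.33 ± 0.23 and -0.00 ± 0.22.

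Genes of the BMP, TGF-beta and activin pathways had no common direction: 6 of 24 rose, 3 fell and 8 were held within 1 (median 0.06). Over all genes the shares were 35.5%, 15% and 22.6%, so these counts do not set the list apart. The 3 other scalings gave 6 higher and 4 to 8 lower. The lower genes numbered 1 without fMaSC replicate 1, fMaSC replicate 2 or luminal progenitor replicate 1, and 5 without luminal progenitor replicate 2. Bmp7 was at 69.9 and 76.3 RPKM in fMaSC and 0.174 and 0.12 in luminal progenitors (6.01 ± 0.21). Fstl1, a secreted BMP antagonist, was at 162 and 157 RPKM against 2.05 and 1.61 (5.83 ± 0.43), and follistatin (Fst), which binds activin, at 37.99 and 41.7 against 2.52 and 2.34 (3.57 ± 0.26). The activin subunit Inhbb went the other way (19.6 and 18.6 RPKM against 58.6 and 67.4, -1.67 ± 0.23). Id2, a target of BMP signals, was held in common at 379 and 368 RPKM against 471 and 291 (0.01 ± 0.42), as were the receptors Bmpr1a (0.15 ± 0.22) and Bmpr2 (0.06 ± 0.28).

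Of 10 hedgehog, parathyroid hormone-related protein and ectodysplasin genes 8 rose and 0 fell (median 1.78), the same count under each of the 3 other scalings. Pthlh, the hormone by which the mammary bud instructs its mesenchyme, was at 51.4 and 51.6 RPKM in fMaSC and 3.51 and 0.769 in luminal progenitors (4.22 ± 0.50). The ectodysplasin receptor Edar, needed for skin appendages, was at 6.55 and 7.67 RPKM against 0 and 0.0799 (2.96 ± 0.28). Smo, the signal transducer of hedgehog, was at 22.3 and 20.03 RPKM against 1.46 and 1.08 (3.29 ± 0.29), and the co-receptor Gas1 at 25.3 and 27.7 against 0.866 and 0.605 (3.99 ± 0.29). All 4 separated the populations completely, as did 82.8% of all genes. The target genes Gli1 (0.0402 and 0 RPKM) and Ptch1 (0.0424 and 0.0337) were under the level for testing in fMaSC and in luminal progenitors, whereas Gli3, which acts as a repressor without hedgehog, was at 36.5 and 49.3 RPKM against 16.5 and 14.7 (1.39 ± 0.29, call lost without fMaSC replicate 2, adjusted p = 0.0607).

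Imprinted and fetal growth genes rose for 16 of 20 (median 1.64) and fell for 0, with 1 lower under each of the 3 other scalings, and 6 of the 20 met the on and off rule given below. Mest was at 156 and 158 RPKM in fMaSC and 0.187 and 0.252 in luminal progenitors (7.02 ± 0.30, adjusted p = 1.4e-05). The non-coding H19 was at 129 and 121 RPKM against 0.0524 and 0.923 (6.47 ± 0.36), and Nnat, a membrane protein, at 46.3 and 42.9 against 0.203 and 0.205 (5.24 ± 0.33). Progenitor libraries stayed under 1 RPKM of these 3. Igf2, the growth factor that shares a locus with H19, rose to only 2.01 and 2.05 RPKM against 0.00716 and 0.0552 (1.56 ± 0.15). Plagl1, a zinc finger factor, was held in common at 33.6 and 30.6 RPKM against 34.4 and 23.4 (0.17 ± 0.34).

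In the insulin-like growth factor list 8 of 17 rose and 3 fell (median 0.96), with 1 lower without fMaSC replicate 2. The largest rise of all tested genes with at least 20 RPKM in fMaSC was in Igfbp2, a binding protein of these factors, at 296 and 289.5 RPKM in fMaSC and 0.147 and 0.19 in luminal progenitors (7.97 ± 0.45). The binding proteins Igfbp3 (57.6 and 60.9 RPKM against 1.42 and 0.94, 4.80 ± 0.27) and Igfbp4 (45.2 and 46.7 against 1.54 and 0.893, 4.42 ± 0.26) rose, and Igfbp5 fell (122 and 119 against 721 and 306, -1.96 ± 0.43, call lost without fMaSC replicate 1 or fMaSC replicate 2, adjusted p = 0.0607 to 0.063). The oncofetal RNA-binding proteins Igf2bp1, Igf2bp2 and Igf2bp3 rose together. Igf2bp3 was at 17.7 and 16.9 RPKM in fMaSC and 0.32 and 0.288 in luminal progenitors (3.81 ± 0.28). The receptor Igf1r was not called (11.8 and 11.9 RPKM against 9.71 and 7.02, 0.47 ± 0.24).

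Chromatin regulators rose for 15 of 29 and fell for 3 (median 1.21), with 5 lower under median-of-ratios factors or quantile scaling, 4 after length centring and 1 without fMaSC replicate 1. Uhrf1, which guides maintenance methylation of DNA, was at 16.7 and 17.9 RPKM in fMaSC and 0.217 and 0.231 in luminal progenitors (3.90 ± 0.24), and the helicase Hells at 28.5 and 23.8 against 2.43 and 1.59 (3.18 ± 0.33). The enzymes of polycomb complex 2 exchanged. Ezh2 was at 37.7 and 39.8 RPKM against 8.14 and 7.06 (2.21 ± 0.28), and Ezh1, its counterpart in resting cells, at 2.59 and 3.73 against 13.0 and 11.9 (-1.71 ± 0.23). Their partners Suz12 (11.7 and 14.1 RPKM against 12.8 and 12.7) and Eed (30.96 and 37.4 against 37.6 and 25.8) were held in common, with differences of 0.01 ± 0.26 and 0.12 ± 0.23. Among the reader subunits of polycomb complex 1 Cbx2 rose (1.43 ± 0.26) and Cbx7 fell (-1.55 ± 0.32, call lost without fMaSC replicate 1, adjusted p = 0.0575).

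Metabolic genes were higher in fMaSC for most lists. Of 80 nuclear genes of the respiratory chain and ATP synthase 75 rose and 0 fell (median 1.75), and between 61 and 73 rose under the 3 other scalings. Ndufa3, a subunit of complex I, was at 111 and 87.2 RPKM in fMaSC and 12.4 and 9.6 in luminal progenitors (3.06 ± 0.22), and Uqcr10, of complex III, at 355 and 296 against 43.99 and 50.8 (2.75 ± 0.19). Cytochrome c (Cycs) was held in common at 369.98 and 349 RPKM against 298 and 353 (0.15 ± 0.18). Of 29 genes of fatty acid and cholesterol synthesis 20 rose and 2 fell (median 1.45). The desaturases exchanged, with Scd2 at 192 and 209 RPKM against 10.1 and 9.55 (4.22 ± 0.27) and Scd1 at 44.5 and 50.04 against 234 and 340.1 (-2.55 ± 0.33). Mvk, a kinase of the mevalonate pathway, was at 10.8 and 10.6 RPKM against 0.237 and 0.90 (2.93 ± 0.35), and Insig1, which senses sterols, at 53.5 and 69.7 against 8.1 and 7.02 (2.86 ± 0.36). Scd2, Mvk and Insig1 were higher in both fetal libraries.

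Glycolysis and hypoxia genes rose for 15 of 25 and fell for 4 (median 1.63), with 7 lower under each of the 3 other scalings, 1 without fMaSC replicate 1 and 2 without fMaSC replicate 2 or luminal progenitor replicate 1, and isoenzymes of one step went opposite ways. The phosphofructokinase Pfkl was at 53.4 and 57.4 RPKM in fMaSC and 6.03 and 5.08 in luminal progenitors (3.11 ± 0.40), whereas Pfkp was at 21.5 and 26.4 against 86.7 and 80.7 (-1.77 ± 0.30). Enolase 1 (Eno1) was at 1346 and 1394 RPKM against 108 and 121 (3.57 ± 0.33). The hexokinases that open the pathway were lower: Hk1 was at 8.39 and 8.9 RPKM against 54.4 and 37.3 (-2.26 ± 0.45, call lost without fMaSC replicate 1, adjusted p = 0.052). Gapdh has many near-identical copies in the genome, so its value is uncertain. Bnip3, a mitophagy receptor induced by hypoxia, rose (29.4 and 27.95 RPKM against 2.17 and 1.13, 3.51 ± 0.33), while Egln3 was not called (-0.54 ± 0.29).

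Ribosomal protein genes rose for 32 of 78 with 23 held within 1 (median 0.61). Quantile normalization gave 38 higher and median-of-ratios factors 16. After length centring 10 rose and 5 fell, and the median was -0.08. Fewer rose without either fMaSC library or luminal progenitor replicate 1, and more without luminal progenitor replicate 2. The median was 0.53 and 0.68 without fMaSC replicate 1 and 2, and 0.34 and 0.86 without luminal progenitor replicate 1 and 2. The shares over all genes were 35.5% higher and 22.6% within 1. Rps29 was at 488 and 388 RPKM in fMaSC and 96.7 and 145 in luminal progenitors (1.87 ± 0.25), and Rpl38 at 313 and 257 against 71.5 and 97.9 (1.75 ± 0.25). Rpl4 was held in common (2049 and 1963 RPKM against 1534 and 1835, 0.26 ± 0.27). Reads of these genes can be shared with many processed copies, so single values are uncertain. Transcript length moved with the comparison over all genes. In 5 classes of equal size the median difference fell from 0.67 in the shortest transcripts to 0.12 in the longest, and the share of higher genes from 44.5% to 26.0%. Of the 80 respiratory genes 60 fell in the shortest class, with 56 higher, and 19 of the other 20 were higher, with a median of 1.75 in both. Of the 78 ribosomal genes 60 fell in the shortest class, with 26 higher, and 6 of the other 18 were higher. Mitosis genes were mostly longer, and 44 of the 46 outside the shortest class were higher. Of the 25 glycolysis and hypoxia genes 7 fell in the shortest class, all 7 higher (median 2.20). Only 8 of the other 18 were higher (median 0.64), and the median of the list was 0.90 after length centring.

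**Figure D4:**
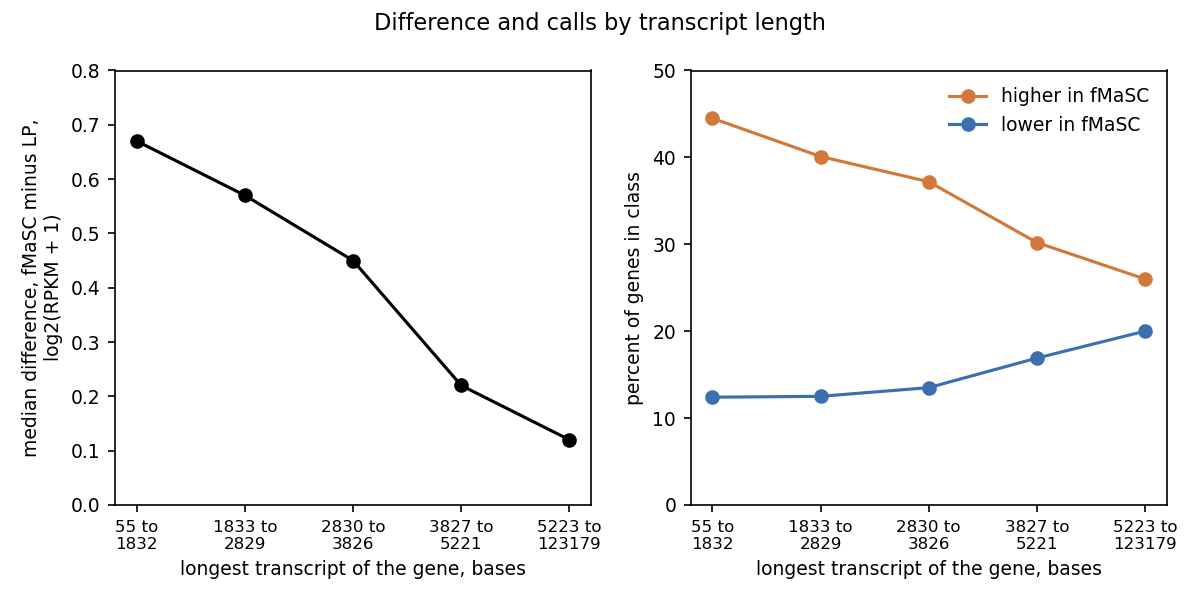
Median difference, fMaSC minus luminal progenitors on the log2(RPKM + 1) scale (left), and percent of genes called higher (orange) or lower (blue) in fMaSC (right), in 5 classes of genes by the length of their longest transcript. The median falls from 0.67 to 0.12 and the percent higher from 44.5 to 26.0 from the shortest to the longest class.

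**Figure D5:**
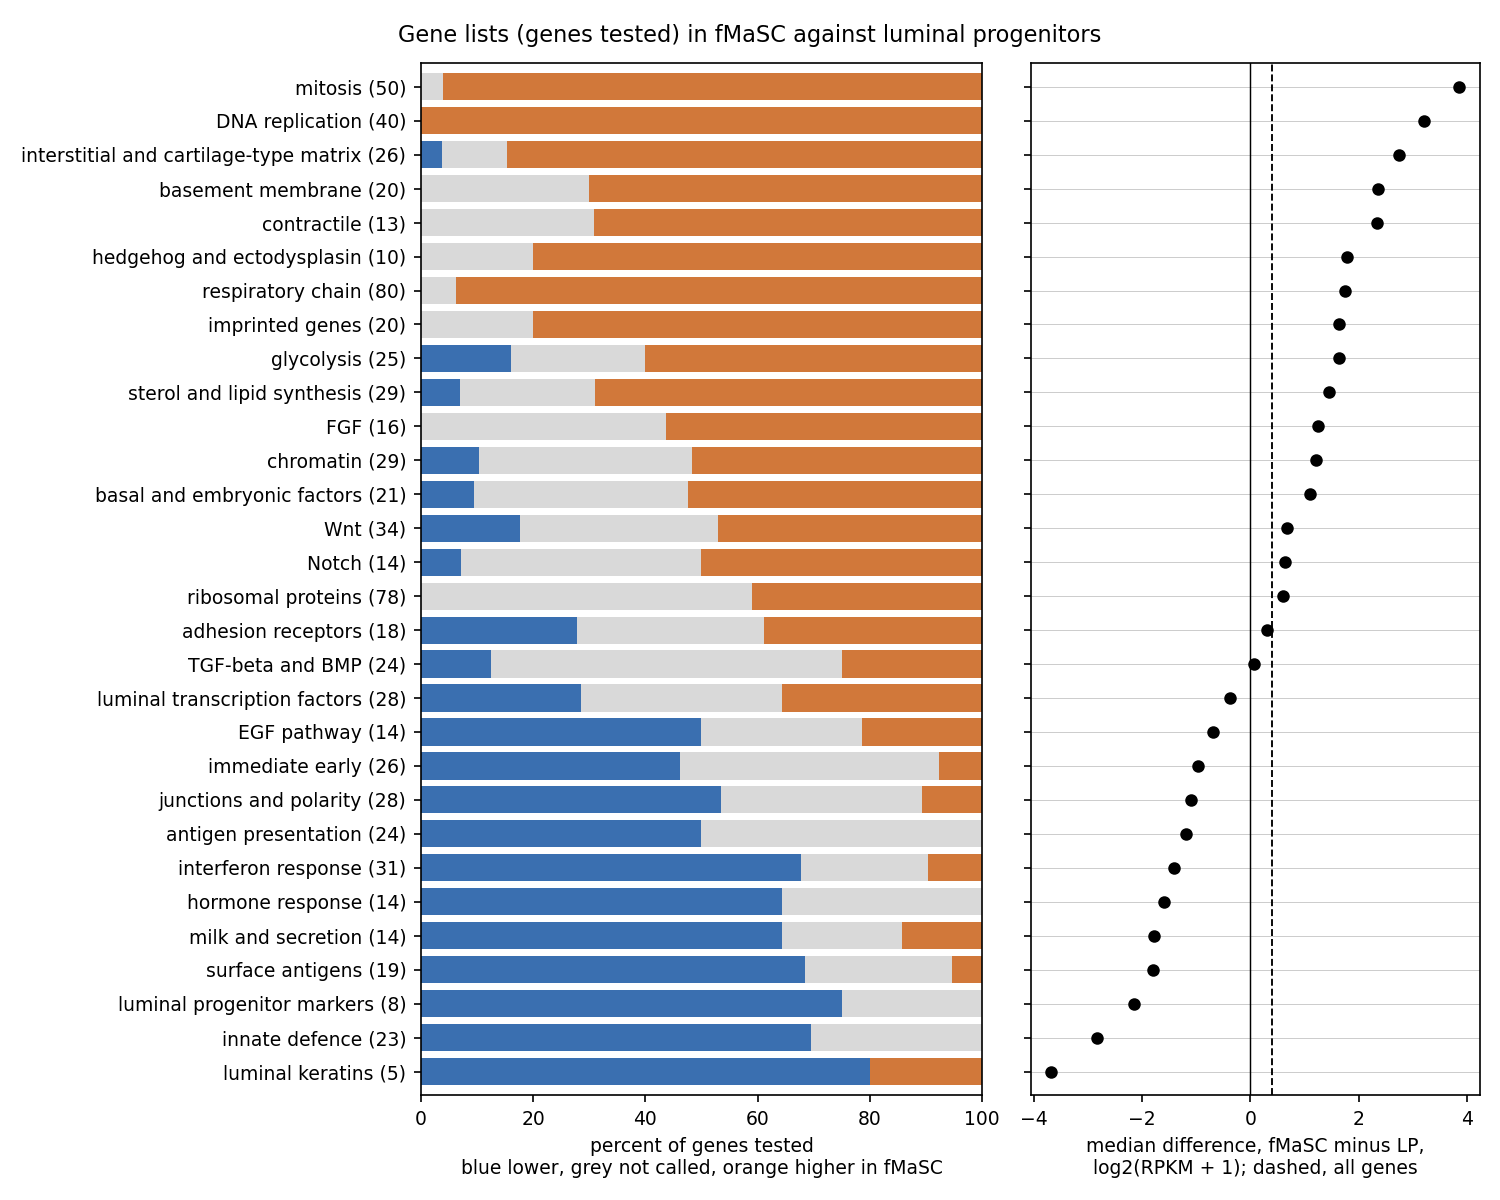
Percent of each list's tested genes called lower, not called and called higher in fMaSC (left; number tested in parentheses), and the list's median difference on the log2(RPKM + 1) scale (right), ordered by that median, with a dashed line at the median of all genes, 0.395. Mitosis and replication lie at the top and luminal keratins, innate defence and progenitor markers at the bottom; luminal transcription factors, adhesion receptors, TGF-beta and ribosomal proteins have a balance or median that turns under another scaling.

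Genes switched on in 1 population and off in the other were counted without a test. At least 10 RPKM in both fMaSC libraries with under 1 RPKM in both progenitor libraries was found for 191 genes (1.52%), and the converse for 52 genes (0.414%). Of the 191, 72 were under 1 RPKM in every adult library, and 21 were mitosis genes of the list above. Bub1 and Cdc25c, a checkpoint kinase and a mitotic phosphatase, were listed at 0 in both progenitor libraries, at 14.4 and 14.0 RPKM and 18.1 and 21.3 RPKM in fMaSC. Cytl1, a secreted cytokine-like protein, was at 289 and 282 RPKM in fMaSC against 0.354 and 0.318 and was the second largest rise (7.74 ± 0.37), and Adamts18, a matrix protease, was listed at 0 in both progenitor libraries and at 36.3 and 33.3 RPKM. Mdk, a heparin-binding growth factor, was at 142 and 126 RPKM against 0.441 and 0.371 (6.58 ± 0.36). The large rises outside this rule included Ppic, a cyclophilin (329.9 and 327 RPKM against 0.919 and 2.1, 7.08 ± 0.30), Serpine2, a protease inhibitor (1142 and 1102 against 8.37 and 7.33, 6.99 ± 0.25), Emid1 (6.80 ± 0.26) and the glypican Gpc3 (6.79 ± 0.46). Of the 52 progenitor genes, 26 had both mature luminal libraries above both progenitor libraries. Dmbt1, a mucosal defence protein, was listed at 0 in both fMaSC libraries, at 45.2 and 42.4 RPKM in luminal progenitors and at 284 and 254 in mature luminal cells, while Slc5a1, a glucose carrier, was at 0.0881 and 0.218 in fMaSC, 17.8 and 15.6 in luminal progenitors and at most 0.613 elsewhere.

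RNA of other cell types differed between the populations as well. Red cell markers summed to 355 and 334 RPKM in fMaSC against 1.34 and 1.05 in luminal progenitors, with the alpha globin Hba-a2 highest (185 and 174 RPKM) and the beta globin Hbb-b2 at 65.3 and 64.3. The adult globin copies Hbb-b1 (0.882 and 94.6 RPKM) and Hbb-bs (95.3 and 0.699) traded places between the fMaSC libraries, as near-identical copies can, and the embryonic globins Hbb-y and Hbb-bh1 were at 0. Fat cell markers summed to 240.1 and 216 RPKM against 17.3 and 30.1, with 5 of 6 higher, among them Car3 (86.4 and 78.9 RPKM against 0.157 and 0.269) and Adipoq (5.04 and 4.87 against 0.109 and 0), and leptin at 0. Pigment and Schwann cell markers summed to 83.2 and 94.8 RPKM against 26.1 and 23.9, and the melanocyte genes Dct (17.9 and 22.9 RPKM) and Pmel (16.2 and 17.7) rose with no or little RNA in luminal progenitors. Endothelial markers summed to 23.1 and 17.4 RPKM against 8.24 and 12.2, and 1 of 5 rose. Immune markers summed to 11.5 and 10.6 RPKM against 3.83 and 3.82, and of 4 tested 1 rose and 0 fell. Of the 10 immune markers 2, Ptprc and Cd3e, were at 0 in fMaSC, and 2 were at 0 in luminal progenitors. Skeletal muscle markers were at most 0.550 RPKM in sum, and of the skin keratinocyte markers Krt10 alone was tested (5.62 and 5.65 RPKM against 1.74 and 0.94). The part of these cells in the differences was not tested.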

How the data were processed

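Gene expression was deposited by the authors as RPKM per gene, in 1 table for the 8 normal mammary libraries. The submitters' processing notes name FastQC, HISAT2 2.0.5, StringTie 1.3.1c and mm9. Per the labels' protocols, polyadenylated RNA of around 2000 sorted cells was amplified with SmartSeq2, made into Nextera XT libraries and sequenced single-end. The protocol does not mark strand or molecules, so antisense partners and amplification duplicates cannot be told apart. RPKM carries no depth, which leaves the depth unknown and allows no counting interval.

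Libraries were grouped by the labels. Genes with at least 1 RPKM in at least 2 of the 8 libraries were analysed on the log2(RPKM + 1) scale by limma 3.58.1 (R 4.3.3), using an intensity trend and all 4 populations sharing the spread. A pseudocount of 1 understates the change of low genes. The contrast was fMaSC minus luminal progenitors, two-sided, at a Benjamini-Hochberg adjusted p under 0.05, and the fit was tested on simulated data. Held in common means a 95% interval within 1. Figures were drawn with matplotlib 3.10.9 in Python 3.11.15.

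The members and gene lists were chosen with earlier results of these data known. From each list the called members with the largest change in each direction and the best expressed members held in common were to be named. Beyond the lists, the rule named the 10 largest rises and 10 largest falls reaching 20 RPKM and 15 genes held in common. Further genes were named for their role in a pathway after their values had been seen. Same-numbered fMaSC and luminal progenitor libraries did not deviate together (r = 0.000386). Among adult populations this r was 0.221 for basal and mature luminal cells and 0.108 for basal cells and luminal progenitors. It was 0.0742 for luminal progenitors and mature luminal cells. Whether the numbers pair the adult libraries was not tested. Alternatives changed the pseudocount, filter, scaling, fitted libraries, trend and thresholds. Transcript lengths are the longest GENCODE vM21 transcript, found for 12478 of the 12553 genes, and promoters are RefSeq's on GRCm38.p6, not the mm9 of the reads. The tumour cell libraries of the series were not used here.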

Additional observations from a re-analysis of the deposited data

How the results depend on the processing

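The counts of higher and lower genes changed most with the scaling and with the loss of 1 library. Lower genes numbered 3142 after quantile normalization and 2994 after centring by transcript length. Genes with an interval within 1 numbered 1685 with a pseudocount of 0.1, 6659 with a pseudocount of 5 and 7811 with no filter on low values. Leaving out 1 library at a time gave 2855 to 5481 higher genes, 983 to 2459 lower genes and 1308 to 4012 within 1. The lowest counts came from leaving out an fMaSC library, which leaves that population 1 library assumed to vary like the others. At 20 RPKM for on and 0.5 for off, 64 genes were on in fMaSC only and 15 in luminal progenitors only, and quantile normalization gave 94 of the latter. Leaving out 1 library gave 207 to 246 and 64 to 74. These counts could not fall, since fewer libraries then have to meet the rule, so they do not measure its stability. With the replicate number as a block 4565 genes were higher, 1917 lower and 2878 within 1, and no gene named in the text changed its call. Whether the numbers pair the adult libraries is not known, and with 2 libraries a population no crossed pairing was fitted. Of the 270 tested genes named in the text, 15 and 18 lost their call without fMaSC replicate 1 and 2, 7 and 6 without luminal progenitor replicate 1 and 2, and at most 6 under any other alternative, while at most 11 gained one. None changed direction past the threshold under any of these settings. The cause of these changes was not tested, and without read depth the precision of low values is unknown.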
